A study of Mus musculus with 54 samples.

Results

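Fign, Skap1, Chn1 and Rora were followed across every group of a mouse prostate tumour study. They are 4 of the 16772 genes in the deposited expression table, and they were chosen by their log2 expression values, which are higher in intact endstage tumours of the DKO_EE genotype than in those of DKO. That contrast therefore describes them and tests nothing. No difference tested here is between animals of that contrast. Comparisons between settings took their error from all 11 groups, which include those animals, and every call was the same with both of those groups left out of the fit.

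Fign encodes fidgetin, an ATPase of the AAA family that severs and trims microtubules. Skap1 encodes an adaptor of T cells that links the T cell receptor to integrin activation. Chn1 encodes alpha-chimaerin, which switches off the GTPase Rac and acts below the receptor EphA4 in axon guidance. Rora encodes a nuclear receptor that activates clock genes such as Arntl and is needed for cerebellar Purkinje cells. Ezh2, the gene altered in this study, encodes the methyltransferase of Polycomb repressive complex 2, a chromatin complex that marks histone H3 and in mammals gathers at CpG-rich promoters of silent developmental genes.

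RNA of prostate tumour tissue was sequenced in 54 libraries from 48 mice, which form 11 groups. The labels describe DKO and TKO as engineered tumour models, and DKO_EE and DKO_EP as DKO mice that also carry Ezh2 deletions. They name neither the genes deleted in DKO and TKO, nor the Cre driver, nor what EE and EP stand for. All DKO_EE and DKO_EP mice share the DKO alterations with their DKO controls. Intact mice were sampled at 12 weeks of age (4 DKO, 4 DKO_EE and 4 DKO_EP) and at endstage (3 DKO at 35 to 46 weeks, 8 DKO_EE at 28 to 42 weeks and 3 DKO_EP at 39 to 52 weeks). Another set was castrated at 12 weeks and taken at endstage (4 DKO at 39 to 99 weeks, 5 DKO_EE at 35 to 59 weeks and 5 DKO_EP at 34 to 37 weeks). Castrated TKO mice were given vehicle (4 mice, 15 to 19 weeks) or CPI1688, an Ezh2 inhibitor (4 mice, 18 to 19 weeks). Age thus differs with genotype at endstage. The castrated DKO mice also carry other identifier letters than the castrated DKO_EE and DKO_EP mice, and those letters and the genotype cannot be told apart. At 12 weeks all DKO_EE and DKO_EP mice carry the same letters, which among the DKO mice only replicate 4 shares. A fit with letters there rests on that mouse.

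In GENCODE M21 on GRCm38, Fign is a protein-coding gene at chr2:63971507-64098038 on the minus strand and Chn1 lies on the same chromosome at chr2:73610660-73775346, also on the minus strand. Skap1 lies at chr11:96464593-96759130 and Rora at chr9:68653786-69388246, both on the plus strand. The 250 bases upstream of the annotated starts are shown for the members with an entry in the RefSeq promoter table (GRCm38.p6), because CpG-rich promoters are where Polycomb repressive complex 2 is known to gather. Capitals mark CG dinucleotides, and each sequence reads 5′ to 3′ on the strand of the gene.
Fign, chr2:64098039-64098288, minus strand: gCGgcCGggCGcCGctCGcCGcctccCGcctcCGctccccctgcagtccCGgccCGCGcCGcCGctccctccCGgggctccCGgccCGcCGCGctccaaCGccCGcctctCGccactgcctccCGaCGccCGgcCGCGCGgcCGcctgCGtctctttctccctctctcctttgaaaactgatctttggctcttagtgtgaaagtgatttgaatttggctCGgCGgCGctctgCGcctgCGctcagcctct
Chn1, upstream start, chr2:73775347-73775596, minus strand: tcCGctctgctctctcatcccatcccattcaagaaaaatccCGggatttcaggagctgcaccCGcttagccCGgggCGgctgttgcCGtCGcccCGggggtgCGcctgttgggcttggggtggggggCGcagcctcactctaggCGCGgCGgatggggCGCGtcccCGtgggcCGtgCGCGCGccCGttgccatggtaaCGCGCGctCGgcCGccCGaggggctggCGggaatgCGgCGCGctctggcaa
Chn1, downstream start, chr2:73660424-73660673, minus strand: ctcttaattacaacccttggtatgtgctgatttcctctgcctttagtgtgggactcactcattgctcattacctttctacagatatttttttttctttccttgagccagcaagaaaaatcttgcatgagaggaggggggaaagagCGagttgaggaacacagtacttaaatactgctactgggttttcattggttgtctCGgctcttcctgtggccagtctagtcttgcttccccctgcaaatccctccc
Rora, chr9:68653536-68653785, plus strand: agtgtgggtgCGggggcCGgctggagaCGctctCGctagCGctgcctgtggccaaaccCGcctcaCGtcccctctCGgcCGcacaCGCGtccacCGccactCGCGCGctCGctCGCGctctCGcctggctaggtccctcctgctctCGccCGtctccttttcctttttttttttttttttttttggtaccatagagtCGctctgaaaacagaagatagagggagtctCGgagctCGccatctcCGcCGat

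The Fign window holds 34 CG dinucleotides, a number that 3.5% of the 32851 promoters in that table reach or exceed, against a median of 6. The window at the upstream start of Chn1 holds 31, reached by 5.2% of promoters, and that of Rora holds 26, reached by 9.6%. The downstream start of Chn1 stands apart with 2, which 81.2% of promoters reach. The deposited values are per gene, so they do not separate the Chn1 starts. The core AGGTCA of the sites that ROR receptors bind, searched on both strands, was found in none of these 4 windows and in 14% of all promoters. Neither Polycomb binding nor histone methylation was measured here.

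The deposited unit is log2 of the normalized count plus 1, called the log2 value below. Replicates are animals, and 6 animals sampled as 2 pieces entered as the mean of their pieces. Libraries held 3687048 to 9741808 reads. Differences were tested with limma on all genes together, and a gene was called where its p, adjusted by Benjamini-Hochberg over every gene of the comparison, was under 0.05. The 7 markers of prostate luminal epithelium had a summed normalized count from 5661 to 35919 per animal. The sum does not show that each marker was kept. In every DKO, DKO_EE and DKO_EP endstage group and in vehicle-treated TKO, 1 of the 7 was at 0 in every animal. Hoxb13 averaged 8.13 in DKO_EE and 8.61 in DKO at 12 weeks, and 0.25 and 2.70 in castrated DKO_EE and DKO. Markers of neuroendocrine cells summed to 32.6 to 2035 at 12 weeks and to 10560 to 26285 in all DKO, DKO_EE and DKO_EP endstage animals but 1. That exception was castrated DKO replicate 2, aged 99 weeks, at 37.2, so results with the castrated DKO mice are also given without it where they change. Vehicle-treated TKO replicate 1 stood apart in the same way, with a neuroendocrine sum of 404 and a fibroblast marker sum of 343640, against 11733 to 42653 in the other vehicle-treated mice. The CPI1688-treated mice spread widely too, with neuroendocrine sums of 4014 to 22606 and fibroblast sums of 25571 to 250130.

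Ezh2 itself was measured at means of 8.28 in intact endstage DKO_EE, 9.61 in DKO and 9.39 in DKO_EP. In DKO_EE against DKO it was not called at 12 weeks, though each DKO_EE mouse lay below each DKO mouse (-0.80, SE 0.19, limma adjusted p = 0.975). Nor was it called in castrated mice with all animals in the fit (-0.90, SE 0.30, limma adjusted p = 0.0831). There Ezh2 was 9.62, 8.43, 9.71 and 9.69 in DKO, with the 8.43 from the 99-week mouse, and 8.02 to 9.19 in DKO_EE. Apart from that mouse, every castrated DKO mouse lay above every DKO_EE mouse. Without it, 1 member of Polycomb repressive complex 2 was called lower in castrated DKO_EE, in place of 0, as given below with that list. The lack of an Ezh2 call thus holds for the fit with all mice. In DKO_EP the Ezh2 level overlapped that of DKO at 12 weeks (-0.18, limma adjusted p = 0.991) and in castrated mice (-0.19, adjusted p = 0.758). The deletion that the labels give to DKO_EP is thus not seen as a called lower Ezh2 level, and where in the gene either deletion lies is not given in the sources used here.

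At intact endstage, the contrast that chose them, all 4 genes were higher in every DKO_EE animal than in any DKO animal. Fign lay at 7.11, 7.94 and 8.09 (lowest, median and highest log2 value) in 8 DKO_EE mice and at 4.65, 3.21 and 3.18 in the 3 DKO mice. For Skap1 the same figures were 8.60, 9.80 and 10.77 in DKO_EE against 3.17, 7.15 and 1.88 in DKO, where the second DKO mouse stood far above the other two. Chn1 lay at 8.20, 8.65 and 9.45 in DKO_EE and at 5.23, 6.06 and 3.85 in DKO. Rora showed the smallest gap, with 8.84, 9.47 and 9.999 in DKO_EE against 7.89, 7.22 and 7.88 in DKO. In order of the difference of group means over all 16772 genes, Skap1 was number 8 (5.59), Fign number 21 (4.07), Chn1 number 29 (3.74) and Rora number 326 (1.75). Leaving out 1 animal at a time moved these differences within 4.5 to 7.13 for Skap1, 3.82 to 4.56 for Fign, 3.14 to 4.25 for Chn1 and 1.53 to 1.87 for Rora.

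The 3 intact endstage DKO_EP mice did not share the rise. Their Fign values of 1.97, 2.33 and 2.73 lay below every DKO mouse. Skap1 at 4.82, 1.05 and 2.73, Chn1 at 6.57, 5.51 and 6.94 and Rora at 6.79, 7.39 and 8.26 overlapped the DKO mice. For each of the 4 genes, every DKO_EP mouse lay below every DKO_EE mouse.

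Reads of Lars2, a mitochondrial tRNA synthetase gene, took over 10% of the library in 5 of the 12 intact endstage DKO_EE libraries and at most 0.0258% in the intact DKO mice. Fign was 7.20 to 8.55 in those 5 libraries and 7.02 to 8.27 in the other 7. Skap1 was 8.59 to 10.21 in the 5 and 8.60 to 10.77 in the 7, and Chn1 and Rora overlapped in the same way. These libraries all took part in the choice of the genes. All 5 libraries of the 3 intact endstage DKO_EP mice held 14.2 to 21.6% Lars2 reads, and castrated and 12-week libraries held at most 0.036%. Pieces of one tumour-bearing prostate differed by a median of 0.70 for Fign (0.18 to 1.85), 0.90 for Skap1 (0.14 to 2.81), 0.62 for Chn1 (0.04 to 1.64) and 0.47 for Rora (0.33 to 0.81), over 6 animals.

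**Figure D1:**
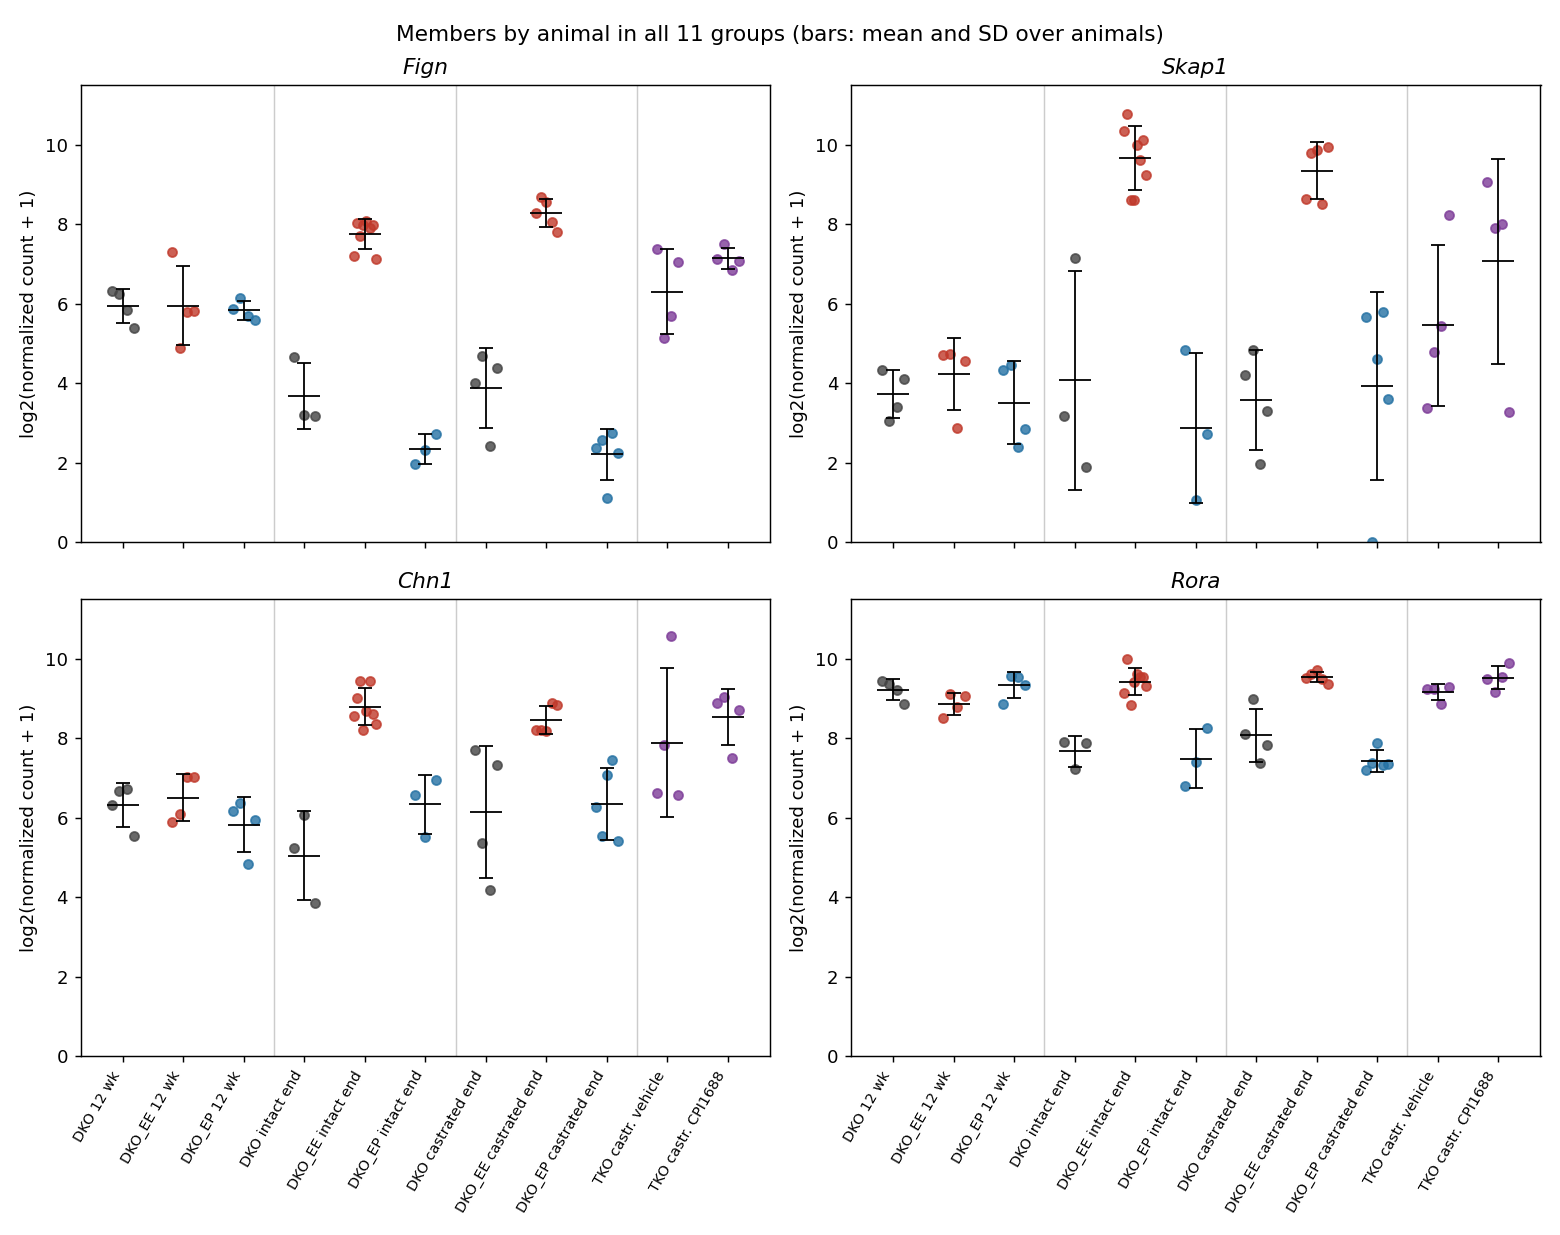
Log2 value, log2(normalized count + 1), of Fign, Skap1, Chn1 and Rora in the 11 groups, with 1 point per animal and a bar for the mean and SD over animals. DKO_EE animals (red) at intact and castrated endstage sit above all DKO (grey) and DKO_EP (blue) animals of the same setting for each gene, and the genotypes overlap at 12 weeks.

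Castrated mice took no part in the contrast that chose the genes, though the genes were chosen with earlier results of these data known. Castrated DKO and DKO_EE mice differ in age and identifier letters as well as in genotype. All 4 genes were called higher in castrated endstage DKO_EE than in DKO tumours, where 3.42% of the genes tested were called higher, and 4 of 4 had no overlap between the animals, where 5.30% of genes had none in that direction. Skap1 rose most and Rora least, as in the intact mice. In bulk tissue, fewer cells of a type and less RNA per cell cannot be told apart.

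Fign, the microtubule severing enzyme, was 8.28, 8.67, 8.56, 8.05 and 7.81 in the 5 castrated DKO_EE mice and 4.01, 4.69, 2.41 and 4.39 in the 4 castrated DKO mice. The lowest DKO_EE mouse thus stood far above the highest DKO mouse. The difference was 4.40 (SE 0.47, limma adjusted p = 0.000213), with group means of 316 and 16.0 normalized counts.

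Skap1, the T cell adaptor, was 8.62, 9.78, 9.87, 8.51 and 9.94 in castrated DKO_EE and 4.22, 4.83, 1.95 and 3.30 in castrated DKO. Each DKO_EE mouse held 364 to 982 normalized counts, and the DKO mice averaged 14.2. The difference was 5.77 (SE 1.0, limma adjusted p = 0.0051).

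Chn1, the Rac inhibitor alpha-chimaerin, was 8.20, 8.21, 8.19, 8.89 and 8.82 in castrated DKO_EE and 7.69, 5.35, 4.19 and 7.33 in castrated DKO. The DKO_EE mice were close together and the DKO mice spread widely, with the highest DKO mouse just below the lowest DKO_EE mouse. The difference was 2.32 (SE 0.65, limma adjusted p = 0.0443). This call was the least secure of the 4: it was lost without any 1 of the 5 DKO_EE mice, without DKO replicate 2 (2.06, adjusted p = 0.0808) and without DKO replicate 3 (1.67, adjusted p = 0.0741). Fitted with age, the difference was 1.23 (limma adjusted p = 0.329).

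Rora, the nuclear receptor, was 9.51, 9.61, 9.71, 9.49 and 9.37 in castrated DKO_EE and 8.09, 8.98, 7.38 and 7.83 in castrated DKO. DKO_EE mice agreed within a narrow band (SD 0.13), and the highest DKO value came from the 99-week mouse. The difference was 1.47 (SE 0.25, limma adjusted p = 0.00486) and 1.77 (SE 0.18) without that mouse. Per kilobase of exon, castrated DKO_EE tumours held 95.1 normalized counts of Skap1, 57.0 of Rora, 56.7 of Chn1 and 31.7 of Fign, whereas DKO tumours held 22.3 of Rora, 16.6 of Chn1, 1.90 of Skap1 and 1.61 of Fign.

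Against castrated DKO_EP, the DKO_EE mice were called higher for 3 of the 4 genes, with 0.707% of genes called higher, and again 4 of 4 showed no overlap, against 2.84% of genes. Fign was 2.37, 2.56, 1.11, 2.75 and 2.23 in castrated DKO_EP, which amounts to 1 to 5 reads per library. The DKO_EE minus DKO_EP difference was 6.07 for Fign (SE 0.44, limma adjusted p = 8.54e-06), 5.42 for Skap1 (SE 0.94, adjusted p = 0.0101) and 2.11 for Rora (SE 0.24, adjusted p = 0.000469). Chn1 differed by 2.11 (SE 0.61) without passing (limma adjusted p = 0.116), and it passed with array weights (adjusted p = 0.0176), with all 11 groups in 1 fit (0.0362) and when age was fitted (0.022). These values share the DKO_EE mice with the comparison against DKO.

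Between castrated DKO_EP and DKO none of the 4 genes was called. Over all genes 0.0302% were called in either direction by limma (2423 of 16558 at an unadjusted p under 0.05, and 2 called by limma-voom). Skap1 was 5.67, 0, 4.60, 5.78 and 3.59 in DKO_EP, a wide scatter that covered the DKO values. The Fign difference was -1.67 (SE 0.47, 95% interval -2.68 to -0.66, limma adjusted p = 0.185), and without DKO replicate 3 it was -2.16 and passed (adjusted p = 0.0417). The 95% intervals were -1.81 to 2.51 for Skap1, -1.18 to 1.60 for Chn1 and -1.19 to -0.10 for Rora. Those of Fign and Rora thus lay below 0, so missing the threshold does not show that the groups were alike.

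**Figure D2:**
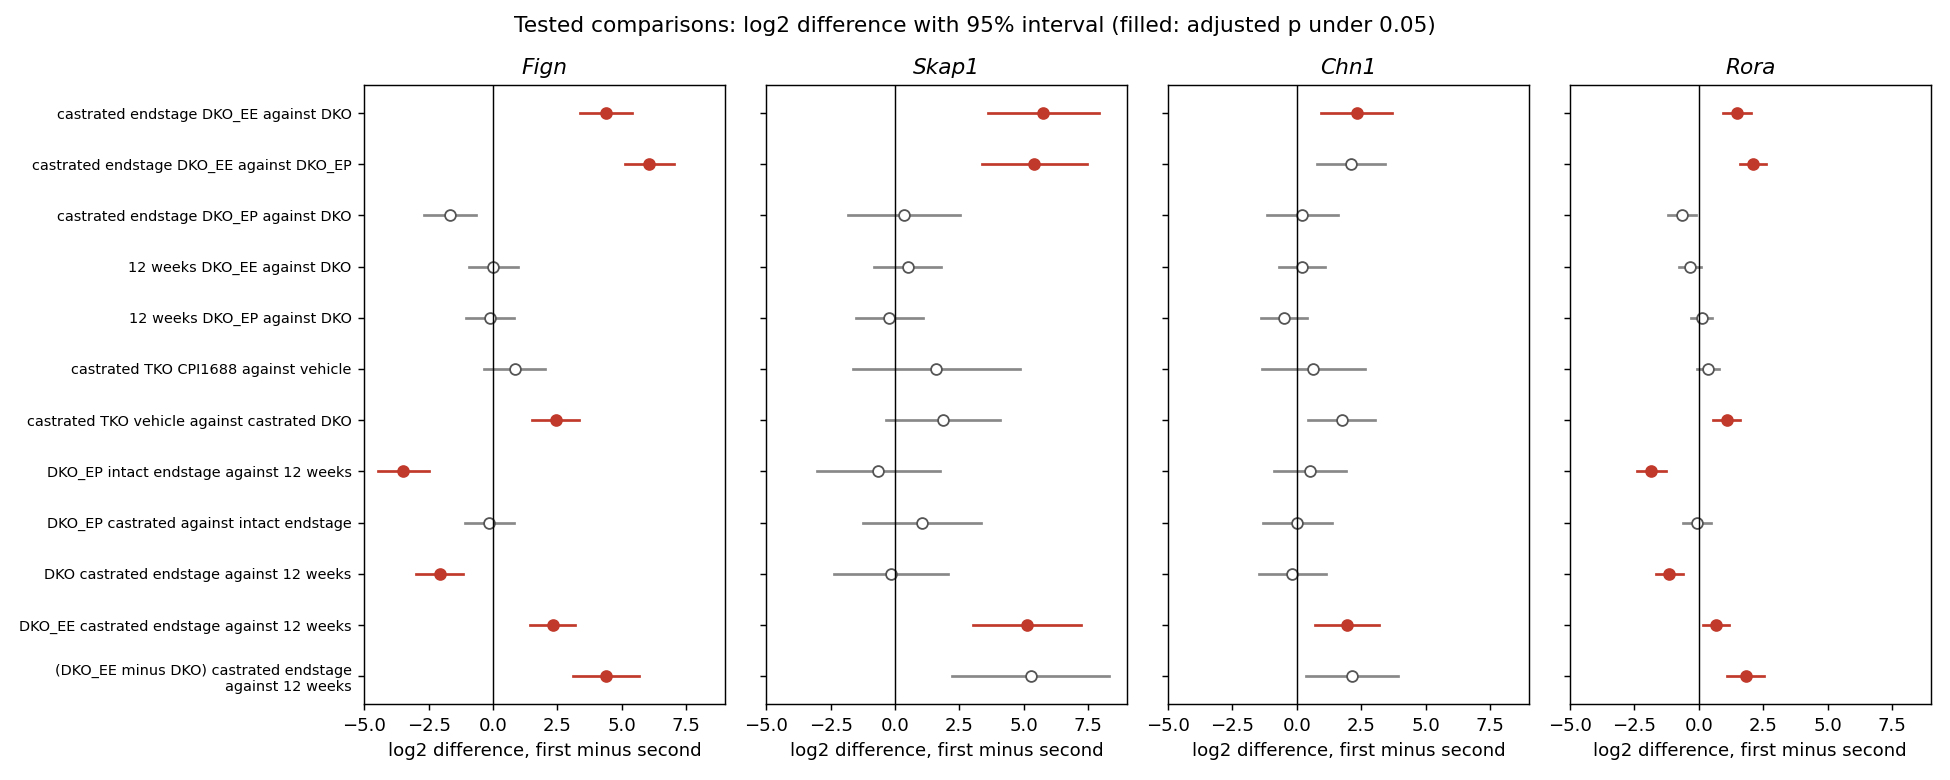
Log2 difference (first group minus second) with its 95% interval for each gene in the 12 tested comparisons, filled red where the limma adjusted p was under 0.05. All 4 genes are filled for castrated DKO_EE against DKO, and none for the 12-week genotypes or for CPI1688 against vehicle.

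At 12 weeks the genotypes could not be separated for any of the 4 genes. Fign was 6.31, 6.24, 5.84 and 5.38 in DKO, 7.31, 4.89, 5.78 and 5.82 in DKO_EE, and 5.87, 6.14, 5.70 and 5.60 in DKO_EP. Skap1 was low throughout, with 4.33, 3.06, 3.40 and 4.11 in DKO, 4.71, 4.73, 2.87 and 4.57 in DKO_EE, and 4.34, 4.47, 2.39 and 2.84 in DKO_EP. Chn1 ran from 4.83 to 7.02 and Rora from 8.52 to 9.56 over the 12 mice. The 3 genotypes overlapped for every gene. Skeletal muscle markers differed widely between these mice, with a summed normalized count of 10972 to 273710 in DKO, 123 to 1570 in DKO_EE and 227 to 278230 in DKO_EP. Their median difference in DKO_EE against DKO was -7.82, with 0 of 6 called.

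In DKO_EE against DKO at 12 weeks, 0 of the 4 genes and 0% of all genes were called by limma, with 796 of 16626 genes at an unadjusted p under 0.05 and 0 called by limma-voom. The differences were 0.01 for Fign (95% interval -0.94 to 0.95), 0.49 for Skap1 (-0.81 to 1.80), 0.19 for Chn1 (-0.71 to 1.08) and -0.35 for Rora (-0.78 to 0.07). The upper ends of these intervals lie below the differences found in castrated mice for Fign, Skap1, Chn1 and Rora. Those differences carry their own error, and for Chn1 the castrated interval (0.93 to 3.71) overlaps the 12-week one. In DKO_EP against DKO, 0 of the 4 genes and 0% of all genes were called (limma, 449 at an unadjusted p under 0.05 and 0 by limma-voom), with differences of -0.12 for Fign, -0.21 for Skap1, -0.49 for Chn1 and 0.11 for Rora.

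Whether the DKO_EE effect differed between castrated endstage and 12 weeks was tested directly. The effect on Fign was larger in castrated endstage mice by 4.39 (SE 0.63, limma adjusted p = 0.000319) and that on Rora by 1.82 (SE 0.35, adjusted p = 0.00563), so 2 of the 4 genes were called, where 0.489% of genes were called in that direction. For Skap1 the change was 5.27 (SE 1.51, limma adjusted p = 0.0717). It passed with an offset of 8 on the counts (4.66, adjusted p = 0.0339), with array weights (0.0143) and with Lars2 as a covariate (0.0498). The slope of the Lars2 fit rests largely on intact endstage DKO_EE mice (SD of Lars2 3.67), which took part in the choice of the genes. For Chn1 the change was 2.13 (SE 0.89, limma adjusted p = 0.217). The 6 skeletal muscle markers moved with this contrast too, with a median of 8.08 and 1 called. Over mice with under 1% of reads from the muscle gene Ttn, the change was 4.49 for Fign (limma adjusted p = 0.000691) and 1.89 for Rora (adjusted p = 0.0143). Castration, age and tumour stage change together between these settings and cannot be told apart. In DKO mice the identifier letters change with them as well.

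Within each genotype, Fign and Rora were called higher at castrated endstage than at 12 weeks in DKO_EE mice and lower in DKO mice. Skap1 and Chn1 were called higher in DKO_EE mice and were not called in DKO mice. Separate animals were sampled at each time. In castrated DKO_EE mice all 4 genes were called higher than at 12 weeks, where 25.5% of genes were called higher: Skap1 by 5.13 (SE 1.04, limma adjusted p = 8.88e-05), Fign by 2.32 (SE 0.43, adjusted p = 2.7e-05), Chn1 by 1.96 (SE 0.61, adjusted p = 0.00682) and Rora by 0.67 (SE 0.24, adjusted p = 0.0189). The Rora call was lost without 12-week DKO_EE replicate 1 (0.56, adjusted p = 0.0787). Cell type markers moved in the same comparison: 12 of 14 T cell, 6 of 7 fibroblast, 4 of 4 basal epithelium, 5 of 5 smooth muscle and 5 of 6 NK cell markers were called lower. All 8 neuroendocrine markers and 4 of 6 neuron markers were called higher. With T cell markers as a covariate 1 of the 4 calls, that of Fign, was left, and the part of the other markers was not tested.

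In castrated DKO mice 2 of the 4 genes were called lower than at 12 weeks, where 17.8% of genes were called lower. Fign fell by 2.07 (SE 0.46, limma adjusted p = 0.000503) with no overlap between animals, and Rora fell by 1.15 (SE 0.26, adjusted p = 0.00061) with the 99-week mouse inside the 12-week range. Skap1 (-0.15, 95% interval -2.37 to 2.07) and Chn1 (-0.18, -1.48 to 1.13) were not called. All 6 skeletal muscle and all 5 smooth muscle markers were called lower and 5 of 8 neuroendocrine markers higher, and the skeletal muscle sum was 43.1 to 319 in castrated DKO against 10972 to 273710 at 12 weeks. Over mice with under 1% Ttn reads, Fign was at -2.17 (limma adjusted p = 0.0064) and Rora at -1.21 (adjusted p = 0.00642). The part of the other markers was not tested.

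In intact endstage DKO_EP mice 2 of the 4 genes were called lower than at 12 weeks, where 22.9% of genes were. Fign fell by 3.49 (SE 0.49, limma adjusted p = 1.18e-06) and Rora fell by 1.85 (SE 0.28, adjusted p = 2.86e-06), and neither overlapped the 12-week mice. Skap1 (-0.64, 95% interval -3.04 to 1.75) and Chn1 (0.52, -0.89 to 1.92) were not called. The endstage libraries here are those with 14.2 to 21.6% Lars2 reads. With Lars2 as a covariate Fign was at -4.00 (limma adjusted p = 0.00337) and Rora at -2.20 (adjusted p = 0.00404). That fit cannot separate Lars2 from the setting, since Lars2 was 20.2 to 20.66 at endstage and 7.14 to 7.58 at 12 weeks. Its slope rests largely on intact endstage DKO_EE mice (SD of Lars2 3.67), which took part in the choice of the genes. Called lower as well were 5 of 6 skeletal muscle, 5 of 5 smooth muscle, 4 of 4 basal epithelium and 9 of 14 T cell markers, and all 8 neuroendocrine markers were called higher. Their part was not tested. Between castrated and intact endstage DKO_EP mice none of the 4 genes was called by limma, where 9.87% of all genes were called in either direction (3318 of 16772 at an unadjusted p under 0.05). The differences there were -0.14 for Fign, 1.06 for Skap1 (95% interval -1.23 to 3.35), 0.01 for Chn1 and -0.06 for Rora.

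**Figure D3:**
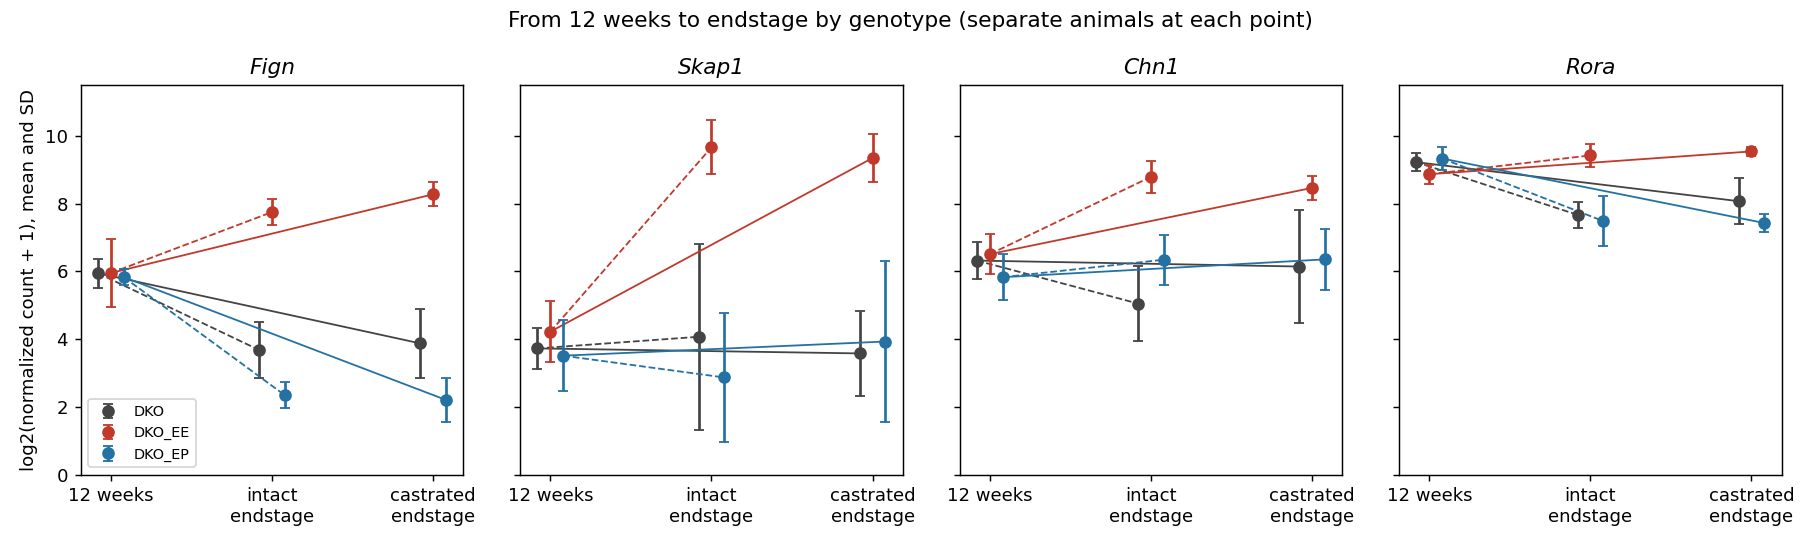
Mean log2 value and SD over animals at 12 weeks, intact endstage and castrated endstage in DKO, DKO_EE and DKO_EP, with separate animals at each point and lines from the 12-week mean (dashed to intact, solid to castrated endstage). Fign and Rora start together at 12 weeks and part by endstage, upward in DKO_EE and downward in DKO and DKO_EP.

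The TKO mice tested whether an inhibitor of the Ezh2 enzyme acts on the genes that DKO_EE tumours show high. No gene of the table passed in CPI1688 against vehicle: 0 of the 4 and 0% of all genes were called by limma, with 337 of 16512 at an unadjusted p under 0.05 and 0 called by limma-voom. Fign was 7.12, 7.49, 6.85 and 7.08 with CPI1688 and 7.37, 5.13, 5.68 and 7.04 with vehicle. All 4 inhibitor-treated mice lay in the upper part of the vehicle range or just above it, and the difference was 0.83 (95% interval -0.34 to 2.01).

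Skap1 was 9.07, 7.90, 8.01 and 3.28 with CPI1688 and 3.38, 4.77, 5.43 and 8.22 with vehicle. In each arm 1 mouse went against the rest, low among the treated and high among the controls. The difference was 1.61 (95% interval -1.65 to 4.87), and the interval holds 0. It ranged from 0.92 without vehicle-treated replicate 1 to 2.87 without CPI1688-treated replicate 4. Chn1 was 8.89, 9.03, 7.50 and 8.71 with CPI1688 and 6.61, 7.82, 10.57 and 6.56 with vehicle, where replicate 3 had the highest Chn1 value of all 48 animals. Its difference was 0.64 (95% interval -1.34 to 2.63), and it ranged from 0.20 to 1.54 over left-out mice, the latter without that mouse. Rora was 9.5, 9.16, 9.55 and 9.89 with CPI1688 and 9.24, 9.24, 8.87 and 9.28 with vehicle, a difference of 0.37 (95% interval -0.06 to 0.79).

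Vehicle-treated TKO mice were already above castrated DKO mice for part of the set: 2 of the 4 genes were called higher, where 0.304% of genes were. Fign was higher by 2.43 (SE 0.46, limma adjusted p = 0.00523) with no overlap, a call that limma-voom did not keep (2.38, adjusted p = 0.0943). Rora was higher by 1.09 (SE 0.26, limma adjusted p = 0.0335), with 1 overlapping mouse in each group, and the call was lost without any of 6 of the 8 mice (TKO vehicle replicates 2, 3 and 4, and DKO replicates 1, 3 and 4), with adjusted p from 0.0508 to 0.203. Skap1 (1.87, limma adjusted p = 0.612) and Chn1 (1.75, adjusted p = 0.285) were not called. Skap1 ranged from 0.95 without TKO vehicle replicate 4 to 2.56 without TKO vehicle replicate 1, and Chn1 from 0.86 without TKO vehicle replicate 3 to 2.27 without DKO replicate 1, and neither passed. Genotype, age, vehicle and identifier letters all differ between these groups and cannot be told apart.

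Ordered by group mean, castrated and intact DKO_EE came first and second for Fign (8.27 and 7.75), and CPI1688-treated TKO came next (7.14), each overlapping the group before it. For Skap1 intact DKO_EE (9.66) preceded castrated DKO_EE (9.34), and the 2 groups overlapped. Chn1 was highest in intact DKO_EE (8.79), followed by TKO with CPI1688 (8.53) and castrated DKO_EE (8.46), which overlapped. Rora was highest in castrated DKO_EE (9.54), TKO with CPI1688 (9.53) and intact DKO_EE (9.42), which also overlapped. The 12-week groups followed at 8.87 to 9.33, with vehicle-treated TKO (9.16) among them. The lowest groups were castrated DKO_EP for Fign (2.20) and Rora (7.42), intact DKO_EP for Skap1 (2.87) and intact DKO for Chn1 (5.05).

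Skap1 is a T cell gene by its best-known role, so 14 T cell markers were read beside it. In castrated DKO_EE against DKO, 0 of the 14 were called higher and 4 lower, where 3.42% of all genes were called higher and 4.30% lower. Those lower included Cd3g by -2.90, Cd8a by -2.80 and Cd8b1 by -2.45. The list's median difference was -1.90, against -0.0035 over all genes. The summed normalized count of the markers was 52.3, 31.0, 62.7, 14.5 and 92.1 in castrated DKO_EE and 242, 249, 48.8 and 148 in castrated DKO, while Skap1 alone held 364 to 982 counts in those DKO_EE mice. At 12 weeks the marker sum was highest, from 161 to 664, and Skap1 was at 2.39 to 4.73. With T cell markers as a covariate the castrated difference was 7.23 for Skap1 (limma adjusted p = 0.0424), 5.56 for Fign (0.00156), 2.18 for Rora (0.00745) and 3.67 for Chn1, which then missed the threshold (0.0794).

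**Figure D4:**
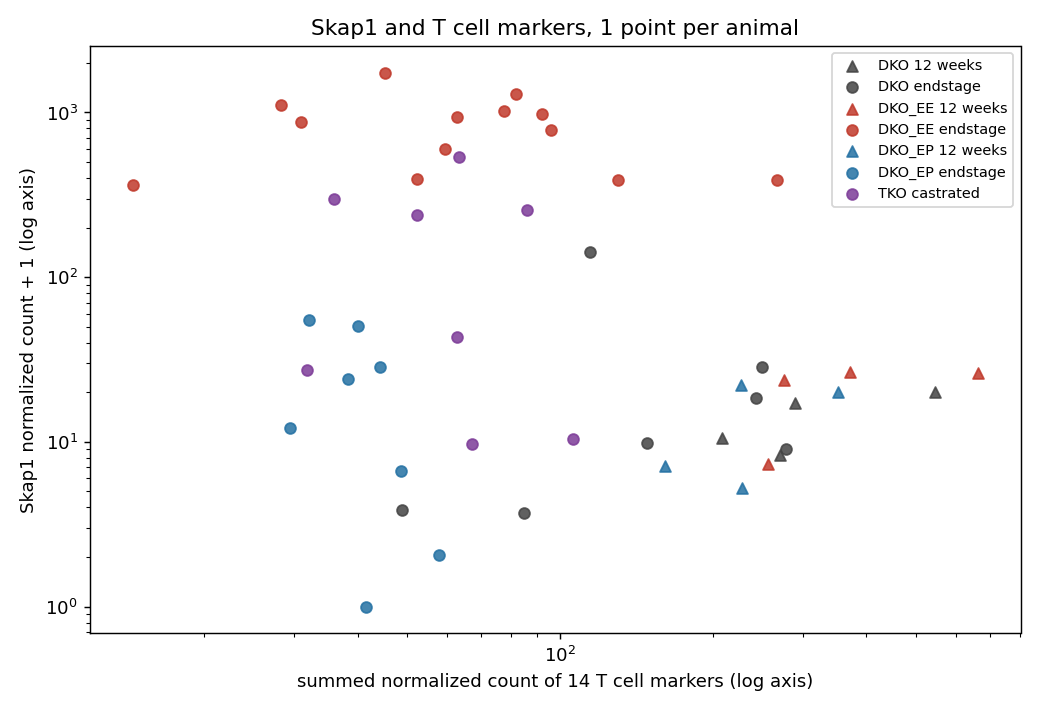
Normalized count of Skap1 plus 1 against the summed normalized count of 14 T cell markers, both on log axes, with 1 point per animal (triangles for 12 weeks). Endstage DKO_EE animals (red circles) lie high on the Skap1 axis over marker sums from 14.5 to 267, and 12-week animals lie low on it at marker sums from 161 to 664.

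Other cell type markers also moved in castrated DKO_EE against DKO, where 3.42% of all genes were called higher and 4.30% lower. Of 7 fibroblast markers 4 were called lower in DKO_EE (Lum -3.97, Dcn -3.25, Thy1 -2.66 and Col3a1 -1.79), and the list summed to 5881 to 14066 in DKO_EE and 18045 to 41229 in DKO. Of 6 neuron markers 1 was called higher, Camk2a (4.40), and the list summed to 9196 to 16969 in DKO_EE and 372 to 10724 in DKO. None of the 8 neuroendocrine markers was called, and their sums of 14750 to 26285 in DKO_EE overlapped the DKO values of 37.2, 15990, 16824 and 17891. The part of these shifts in the differences of Fign, Chn1 and Rora was not tested.

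The pathways around each member were read in castrated DKO_EE against DKO, beside the same 3.42% of all genes called higher and 4.30% lower. The first 4 lists each hold the member they were built around, which was chosen for its difference, so these counts describe the lists and test nothing about them. Among 11 genes of microtubule severing and related ATPases, 2 were called higher and 0 lower: Fign and Spast (0.91, limma adjusted p = 0.0273), which encodes the severing enzyme spastin. The list's median was 0.17.

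Among 22 measured SKAP1 partners and integrin regulators, 3 were called higher, Skap1 among them, and 2 lower. Prkd1, a protein kinase, rose by 1.69 and Rapgef1, an exchange factor for Rap1, by 0.44 beside Skap1, whereas the T cell adaptor Lat fell by 2.23 and the integrin-binding talin gene Tln1 fell by 0.67. The median was -0.41. Without the 99-week DKO mouse 2 were called higher and 1 lower.

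Among 23 genes of chimaerins, other Rac inhibitors and EphA4 signalling, 2 were called higher and 3 lower. Both chimaerin genes were the ones higher, Chn2 by 2.51 (SE 0.64, limma adjusted p = 0.031) and Chn1. Arhgap24 (-1.88), Bcr (-0.62) and Srgap2 (-0.54), which encode other GTPase activating proteins, were lower, and the receptor gene Epha4 was at 0.75 (SE 0.89, limma adjusted p = 0.635). The median was -0.16.

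Among 20 ROR receptors and clock genes, 3 were called higher and 0 lower: Rora, its paralogue Rorb by 2.97 (SE 0.85, limma adjusted p = 0.0493) and the clock activator Arntl by 0.73 (SE 0.20, adjusted p = 0.0397). The median was 0.30, and without the 99-week DKO mouse 1 was called higher. Among 11 measured members of Polycomb repressive complex 2, Suz12 was called higher by 0.57 (limma adjusted p = 0.0323) and none lower. Without the 99-week mouse 1 member of that complex was called lower. With all mice, Ezh2 had the lowest difference of the list (-0.90), and Mtf2 (-0.06, SE 0.13) was the only other member below 0.

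Within 300 kb of the members, 38 other genes were tested in castrated DKO_EE against DKO, and 1 was called higher and 2 lower. Over all genes 7.72% were called in either direction, a share near that of the neighbours. No measured gene lies within 300 kb of Fign. Around Chn1 0 of 8 neighbours were called and around Rora 0 of 2, with Ice2, 9.7 kb from Rora, at 0.06 (SE 0.20). Atf2, 41.2 kb from Chn1, was at -0.34 (SE 0.19), and Chn1os3, an antisense gene inside Chn1, at -0.95 (SE 0.75, limma adjusted p = 0.451). Whether the counting used strand is not given in the sources used here, so reads of Chn1 and Chn1os3 may not be separated.

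Around Skap1 1 of 28 neighbours was called higher and 2 lower. The one that rose was Gm11529, a noncoding transcript on the opposite strand 46 bases from Skap1, which was listed at 0 in every castrated DKO mouse and averaged 2.03 in DKO_EE (limma adjusted p = 0.00458). Copz2, 90.7 kb away, was lower by a difference of -2.0 (SE 0.49, limma adjusted p = 0.0274), and Gm53, listed at 0 in every castrated DKO_EE mouse, averaged 4.01 in DKO (adjusted p = 0.0155). Snx11, 8.4 kb away, was at 0.07 (SE 0.19) and Cbx1, 30.0 kb away, at -0.14 (SE 0.19). The Hoxb genes upstream of Skap1, known targets of Polycomb repression, were not called, with differences from -2.45 for Hoxb13 to 1.06 for Hoxb9.

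**Figure D5:**
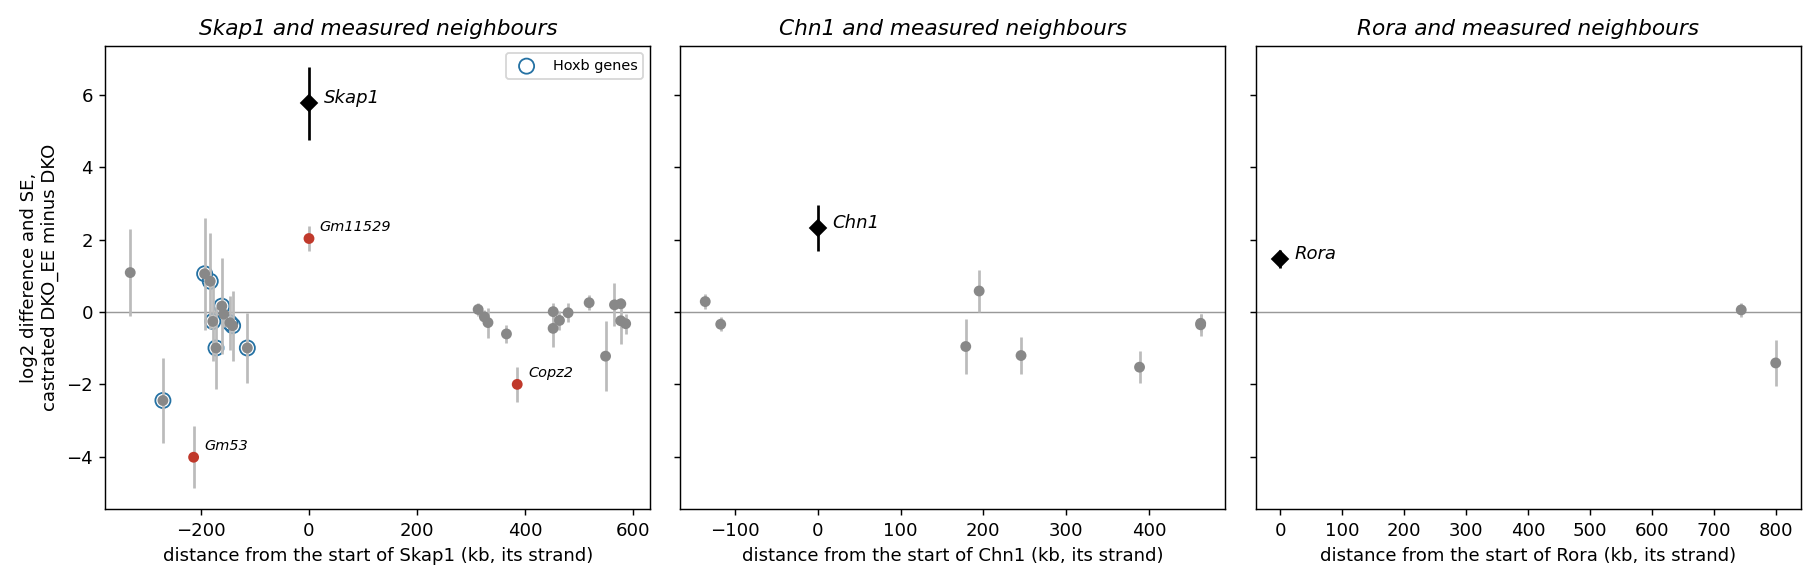
Log2 difference and SE in castrated DKO_EE minus DKO for the measured genes near Skap1, Chn1 and Rora, against the distance in kb between gene starts along the member's strand (red points passed the threshold, black diamonds are the members, blue rings mark Hoxb genes). Skap1 at 5.77 and Gm11529 at 2.03 stand above neighbours that lie mostly around 0.

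Similar genes were sought over the 37 animals outside the contrast that chose the members. That search skipped the most weakly expressed 25% of the table and provisional symbols such as Gm and Rik names. Among the genes searched, Fign and Rora were each other's most similar gene, with a Pearson r of 0.88. After Rora, the genes most like Fign were Zfhx4 (0.87) and Gas7 (0.84), and after Fign those most like Rora were Tenm3 (0.85) and Sgce (0.84). Skap1 was most like Ap1ar (0.75), the calcium channel gene Cacna1d (0.72) and the potassium channel gene Kcnh5 (0.71). Chn1 was most like Sgip1 (0.77), Fam171b (0.76) and Inpp4a (0.75). Between other members r was 0.64 for Skap1 and Chn1, 0.62 for Fign and Skap1, 0.49 for Fign and Chn1, 0.45 for Skap1 and Rora, and 0.39 for Chn1 and Rora. These animals share groups, so the values describe a pattern over groups and carry no test.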

How the data were processed

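Bulk RNA was measured in 54 libraries of mouse prostate tumour tissue. Per the labels, libraries were made from total RNA after ribosomal depletion. The submitters' processing notes list STAR, RSEM, FastQC, DESeq2 and limma, without versions, and builds mm10 and GRCm38. The authors deposited log2 values of a normalized count plus 1. Of 56 columns, 2 matched no sample and were not used. All values up to 2000 reads (100%) lay within 0.05 of a whole read after undoing the log, and the reads recovered this way gave the depths.

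Pieces of one animal were averaged. All genes were fitted at once (limma 3.58.1, R 4.3.3, eBayes with trend) on the log2 values, per setting (12 weeks, castrated endstage, TKO) or over all 11 groups for comparisons between settings, at a Benjamini-Hochberg adjusted p under 0.05. The fit was tested on simulated data. Contrasts with intact endstage DKO or DKO_EE mice were described only.

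The members and lists were chosen with earlier results of these data known. By rule, up to 4 genes with the smallest adjusted p were named per list. Neighbours within 300 kb and the 3 most similar of the genes searched were named as well. Alternatives were another offset, filtering, quantile normalization, array weights, covariates, limma-voom, other groups in the fit and leaving out each animal. Leaving out animals with over 1% Ttn reads, fitting 9 groups without intact endstage DKO and DKO_EE, and the list counts without the 99-week mouse, were chosen after seeing the data. The SKO model named in the series was not analysed here, and some single marker genes are not reported here. Positions come from GENCODE M21, and promoters from RefSeq. Figures used Python with matplotlib 3.10.9.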

Additional observations from a re-analysis of the deposited data

Results flagged for a closer look

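The effect of DKO_EE against DKO differed between castrated endstage and 12 weeks for Fign, by 4.39, and for Rora, by 1.82, in a limma test of the difference itself. Of 36 pairs of a gene and a group of 4 to 10 animals, 3 held an animal far from the others, and chance gives about 1 in 20. Skap1 in 12-week DKO_EE replicate 3 was at 2.87, below 4.57 to 4.73 in the other mice of that group. Rora in vehicle-treated TKO replicate 3 was at 8.87, below 9.24 to 9.28, and the same mouse had the highest Chn1 value of its group. Rora in castrated DKO_EP replicate 3 was at 7.89, above 7.19 to 7.38.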

How the results depend on the processing

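Calls of Fign, Skap1 and Rora in castrated DKO_EE against DKO and against DKO_EP kept their direction and side of the threshold under every alternative and left-out animal. Comparisons between settings kept every direction and call with intact endstage DKO and DKO_EE left out of the fit. In fits over all 11 groups, the Lars2 slope rests largely on intact endstage DKO_EE mice, which took part in choosing the genes. The cause of each change listed next was not tested.

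In castrated DKO_EE against DKO, Chn1 lost its call with array weights (1.44), age (1.23) or T cell markers (3.67) as covariates, and ranged from 1.67 to 2.84 over left-out animals. Against DKO_EP it passed with array weights (2.16), all 11 groups in 1 fit (2.11) and age (2.49). In castrated DKO_EP against DKO, Chn1 reversed with array weights (-0.72) and age (-1.26), and Rora with T cell markers (0.11). Over left-out animals there, Skap1 ranged from -0.19 to 1.33, Chn1 from -0.44 to 0.73, Fign from -2.16 to -1.40, and the members called from 0 to 1.

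At 12 weeks in DKO_EE against DKO, none called, Fign reversed with array weights (-0.16), T cell markers (-0.18), limma-voom (-0.0036) and animals under 1% Ttn (-0.0893), Chn1 with the last (-0.19) and Rora with identifier letters (0.0056). Over left-out animals Fign ranged from -0.45 to 0.36 and Chn1 from -0.0703 to 0.39. In DKO_EP against DKO, Fign reversed with quantiles (0.0084), letters (0.44) and T cell markers (0.17), Skap1 with quantiles (0.15), T cell markers (0.20) and animals under 1% Ttn (0.14), Chn1 with letters (0.29) and Rora with animals under 1% Ttn (-0.081). Left-out animals gave Fign -0.30 to 0.0064, Skap1 -0.53 to 0.16 and Rora -0.0109 to 0.26.

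In TKO vehicle against castrated DKO, limma-voom took Fign under the threshold (2.38), leaving 1 member called, and left-out animals gave Rora 0.86 to 1.39 and 1 to 2 members called. In DKO_EP intact endstage against 12 weeks, Skap1 reversed with Lars2 as a covariate (2.75) and ranged from -1.62 to 0.27 over left-out animals. In DKO_EP castrated against intact, Fign reversed with array weights (0.0201), Lars2 (0.35) and T cell markers (0.19), Rora with array weights (0.0651), the first library of each animal (0.0186), Lars2 (0.27), T cell markers (0.0006) and limma-voom (0.0198), and Skap1 with Lars2 (-2.11). Left-out animals gave Fign -0.32 to 0.14, Chn1 -0.40 to 0.31 and Rora -0.40 to 0.33.

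In DKO castrated against 12 weeks, Skap1 reversed with quantiles (0.46) and animals under 1% Ttn (0.35), and Chn1 with array weights (0.67); left-out animals gave Skap1 -0.57 to 0.39 and Chn1 -0.69 to 0.47. In DKO_EE castrated against 12 weeks, T cell markers as a covariate took Skap1 (4.62), Chn1 (2.28) and Rora (0.91) under the threshold, leaving 1 member called, and left-out animals gave Rora 0.56 to 0.76. The difference of DKO_EE effects passed for Skap1 with an offset of 8 (4.66), array weights (5.27) and Lars2 (5.54). Without the 99-week DKO mouse, the clock list had 1 gene called higher in place of 3, the SKAP1 list 1 lower in place of 2, and Polycomb repressive complex 2 had 1 lower in place of 0. Over all genes, the castrated comparison of DKO_EE with DKO called 566 higher and 712 lower, against 503 and 693 by limma-voom on the recovered reads, 1110 and 1297 with array weights, 193 and 261 with age, and 105 and 101 with T cell markers as a covariate. No paired analysis was possible because the replicate numbers follow accession order and pair no animals. At a few reads per library, values of Fign and Skap1 in DKO and DKO_EP carry counting error beside the spread of animals.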
